A study of Mus musculus with 6 samples.

Results

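The step from hematopoietic stem cells (HSCs) to multipotent progenitors (MPPs) was described in mouse cells lacking Bmi1, by setting the 3 Bmi1 KO MPP samples against the 3 Bmi1 KO HSC samples. These 6 samples were the red (Cy5) channels of 6 dual-colour Agilent arrays, which held 12 samples in all. The green (Cy3) channel of each array held wild-type (WT) RNA of the same population. HSCs and MPPs had been sorted by FACS from C57BL6 mice aged 2 to 3 months, and KO and WT mice shared strain and age. The labels call the 3 samples of a group biological replicates, but say neither whether mice were pooled, which surface markers defined the sort, nor what was deleted from Bmi1 in the KO allele. The dyes were not exchanged on any array, so the KO samples are always red and the step was measured within that dye.

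HSCs are mostly quiescent cells that renew themselves and maintain all blood lineages. MPPs are their immediate descendants; they have lost lasting self-renewal, divide more often and include cells that begin to express lymphoid or myeloid genes. Bmi1 is a subunit of Polycomb repressive complex 1 (PRC1), which silences developmental genes and the Cdkn2a locus and is required for HSC self-renewal.

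Values below are log2 normalized red signals, given for arrays 1, 2 and 3 of a population in that order. A difference is the MPP mean minus the HSC mean, with its standard error (SE) over 3 against 3 arrays. Its p-value is from limma, adjusted by the Benjamini-Hochberg method over all 29134 features, where a feature is a gene or an unnamed transcript represented by its brightest probe. Here "rose" and "fell" mean higher and lower in MPPs than in HSCs at an adjusted p under 0.05. An exact permutation test of 3 against 3 samples cannot give a two-sided p below 0.1, and with 3 arrays a group the precision of each value is limited. In red, 78.8% to 83.9% of the spots on an array stood well above background, and the median red signal was 379 to 581 on the HSC arrays and 462 to 501 on the MPP arrays. Red channels correlated at 0.95 to 0.969 within MPPs but at 0.891 to 0.922 within HSCs, and the median feature had an SD of 0.48 in HSCs against 0.29 in MPPs. HSC array 2 correlated least with the MPP arrays, at 0.869 to 0.873. Row 1 of the slide carried HSC arrays 1 to 3 together with MPP array 1, and row 2 carried MPP arrays 2 and 3, so row is partly confounded with population.

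Bmi1 itself gave a red signal of 10.04, 8.13 and 11.18 in HSCs and 11.15, 11.45 and 11.78 in MPPs. The groups overlapped at a single array, HSC 3, and the difference of 1.67 ± 0.74 did not pass (adjusted p = 0.428). A second Bmi1 probe differed by 0.56. At the brighter probe, the log2 ratio of KO over WT was -0.39, -2.42 and -0.50 on the HSC arrays and 0.23, -0.69 and 0.48 on the MPP arrays. Without knowledge of the deleted part, this probe does not check the KO labels.

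Marker genes of both populations were read next. They were chosen with earlier results of these data known, so their values are no independent check of the population labels. Dntt, the template-free DNA polymerase of lymphoid progenitors, read 9.96, 10.05 and 9.61 in HSCs and 13.49, 13.13 and 13.77 in MPPs. Its lowest MPP array lay above its highest HSC array by over 3 log2 units, and Dntt rose by 3.59 ± 0.28 (adjusted p = 0.00567). Flt3, the receptor tyrosine kinase that marks MPPs, read 11.72, 12.32 and 11.68 in HSCs and 14.98, 14.95 and 14.56 in MPPs and rose by 2.92 ± 0.29 (adjusted p = 0.0145), with 0.43 and 3.53 at its 2 other probes. Satb1, a chromatin organizer of early lymphoid cells, read 10.22, 11.76 and 10.70 in HSCs and 14.48, 14.59 and 14.84 in MPPs and rose by 3.74 ± 0.42 (adjusted p = 0.0242). All MPP arrays were above all HSC arrays for these 3 genes. Vwf, the platelet adhesion protein that marks HSCs with platelet bias, read 13.73, 14.28 and 13.29 in HSCs and 10.15, 10.48 and 10.62 in MPPs and differed by -3.35 ± 0.33 (adjusted p = 0.0145). Cdkn1c, the CDK inhibitor p57 that keeps HSCs quiescent, read 13.51, 14.07 and 14.08 in HSCs and 10.58, 11.41 and 10.79 in MPPs and differed by -2.96 ± 0.32 (adjusted p = 0.0217). Both fell, with no overlap between populations. A further Vwf probe differed by only -0.61, so for Flt3 and Vwf the size of the change depends on the probe. Leaving out 1 array kept every direction but ended calls of 4 markers. Flt3 missed the threshold without HSC array 1 or any 1 MPP array (adjusted p 0.0556 to 0.0815), and so did Vwf (0.0568 to 0.0722). Satb1 missed it without HSC array 1 or 3 or any 1 MPP array (0.0568 to 0.113), and Cdkn1c without HSC array 2 or 3 or MPP array 1 or 3 (0.0565 to 0.113). Dntt passed under each of the 6 omissions. Within row 1, where MPP array 1 is the only MPP sample, the differences were 3.62 for Dntt, 3.08 for Flt3, 3.58 for Satb1, -3.62 for Vwf and -3.30 for Cdkn1c, with adjusted p from 0.234 to 0.674.

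**Figure D1:**
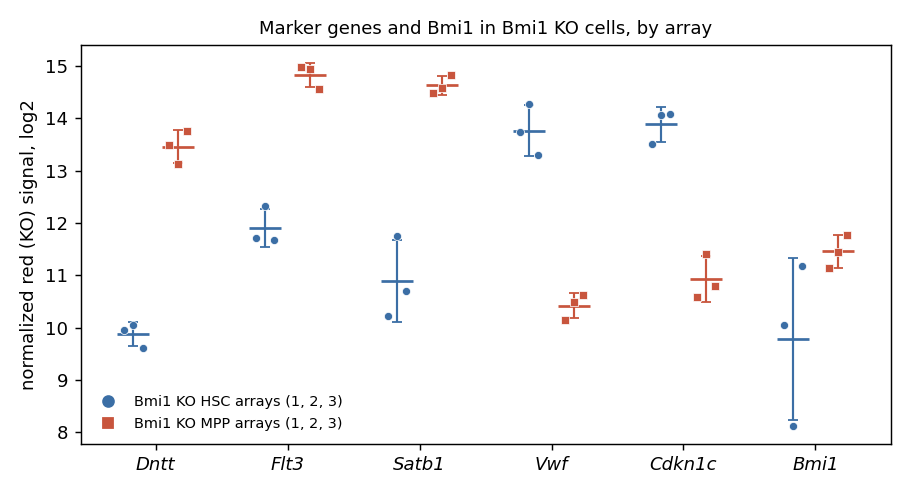
Normalized red (Bmi1 KO) signal on a log2 axis for the 5 marker genes and Bmi1; points are single arrays (circles HSC, squares MPP, arrays 1 to 3 from left to right), horizontal lines are means and bars are ± 1 SD over 3 arrays. Dntt, Flt3 and Satb1 are higher on all MPP arrays, Vwf and Cdkn1c lower, and Bmi1 overlaps through HSC array 3.

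Across the genome, 155 of 29134 features passed (0.532%). Of these, 124 were higher in MPPs (0.426%) and 31 lower (0.106%), and in all 155 the 3 MPP arrays lay outside the range of the 3 HSC arrays. Such separation was found upwards in 8.64% of all features and downwards in 11.1%, so separation alone is common. The median feature differed by -0.09, and 43% of features had a higher mean in MPPs. An unadjusted p under 0.05 was reached by 1903 features upwards (6.53%) and by 1614 downwards (5.54%). Current gene names were carried by 46 of the features that rose and 22 of those that fell, and the rest were RIKEN clones, predicted genes, transcript accessions or unnamed probes. The number of calls fell from 155 to 93 without HSC array 1, 70 without HSC array 2, 67 without MPP array 1, 73 without MPP array 2 and 58 without MPP array 3, and was 154 without HSC array 3. Of the 37 genes with a call that the naming rule chose, 12, 17 and 19 still passed without HSC array 1, 2 or 3, and 15, 11 and 8 without MPP array 1, 2 or 3. With slide row as a block 16 features passed, all of them higher in MPPs, and within row 1 no feature passed limma's adjusted threshold (988 had an unadjusted p under 0.05).

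**Figure D2:**
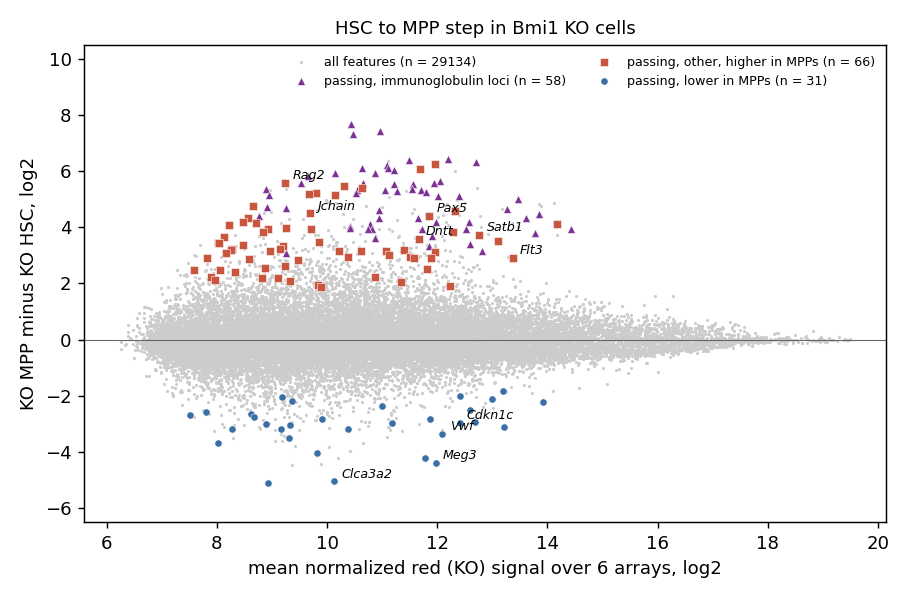
Difference between Bmi1 KO MPPs and HSCs (log2, vertical) against mean red signal over the 6 arrays (log2, horizontal) for 29134 features. The 58 passing features of the immunoglobulin loci (triangles), 66 other features that rose (squares) and 31 that fell (circles) are marked.

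Among named genes the largest rise was that of Rag2, a subunit of the recombinase that joins antigen receptor gene segments. Its signal was 6.52, 6.64 and 6.19 in HSCs and 10.98, 12.41 and 12.73 in MPPs. The HSC signal was not well above background on any array, and Rag2 was at least 44.6-fold higher in MPPs (adjusted p = 0.0083; log2 difference of the measured means 5.59 ± 0.48). Such a lower bound sets the MPP mean against the lowest signal well above background on the HSC arrays, or the probe's own where that is higher. A second Rag2 probe differed by 0.62, far less than the brighter one. Cd180, a Toll-like receptor homologue of B cells, was also not well above background in HSCs and rose at least 16.5-fold, from 6.45, 6.35 and 6.38 to 9.66, 11.59 and 10.46 (adjusted p = 0.0273). The same held for Plau, the urokinase plasminogen activator, which rose at least 13.3-fold, from 6.19, 6.38 and 5.96 to 9.66, 10.73 and 10.37 (adjusted p = 0.00676). For these 3 genes the rise begins from a level the arrays could not resolve.

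Other rises were measured on both sides. Jchain, which links IgM and IgA into polymers, read 7.13, 6.73 and 8.47 in HSCs and 12.67, 11.52 and 11.60 in MPPs and rose by 4.49 ± 0.54 (adjusted p = 0.0311). Pax5, the transcription factor that commits cells to the B lineage, read 9.76, 9.95 and 9.25 in HSCs and 12.96, 14.37 and 14.84 in MPPs and rose by 4.41 ± 0.51 (adjusted p = 0.0275), with 2.05 at a second probe. Drc7, a subunit of the dynein regulatory complex, read 6.88, 6.97 and 7.37 in HSCs and 11.58, 12.26 and 12.91 in MPPs and rose by 5.18 ± 0.38 (adjusted p = 0.00497). In Jchain MPP array 1 was the highest MPP array, whereas in Pax5 and Drc7 it was the lowest. Slc9a9, an endosomal sodium-proton exchanger, rose by 5.20 ± 0.52 (adjusted p = 0.0151), Bex6 by 5.46 ± 0.67 (adjusted p = 0.0333) and Tmem150b by 5.13 ± 0.37 (adjusted p = 0.00479). A second probe of Bex6 differed by 4.15 but that of Tmem150b by 0.51. In HSCs, Jchain, Slc9a9 and Bex6 were each well above background on 2 of 3 arrays. Mthfd2, the mitochondrial one-carbon enzyme of proliferating cells, read 6.94, 6.91 and 6.87 in HSCs and 10.73, 11.07 and 10.46 in MPPs and rose by 3.85 ± 0.25 (adjusted p = 0.00333), with 1 of 3 HSC arrays well above background. Tmem156 rose by 3.97 ± 0.33 (adjusted p = 0.00676) and Grap, a Grb2-like adaptor of lymphocytes, by 3.93 ± 0.44 (adjusted p = 0.0247). All of these genes had the same direction in every other setting tried.

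The largest group of rises came from the immunoglobulin loci. Of the 124 features that rose, 58 mapped to the heavy chain locus (36), the kappa locus (20) or the lambda locus (2). Over all 227 features tested there, 207 were higher in MPPs and the median difference was 2.87, against -0.09 over all other features, and 0 fell. This group was put together after the values had been seen. The loci span chr12:114523536-117238485, chr6:67675577-70676751 and chr16:19065462-19241363 (mm9), and hold the variable (V), diversity, joining and constant segments from which B cells assemble antibody genes. Median signals over the heavy features were 9.18, 8.62 and 8.74 on the HSC arrays and 13.83, 11.63 and 12.72 on the MPP arrays, and over the kappa features 8.43, 8.41 and 8.19 on the HSC arrays and 12.42, 11.28 and 11.07 on the MPP arrays. MPP array 1 thus gave the highest medians of both loci. The constant segments of lambda 2 and lambda 3 rose by 4.20 ± 0.53 (adjusted p = 0.0349) and 3.94 ± 0.49 (adjusted p = 0.0347).

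The probes of 4 V segments are shown because they are so alike that signal may not be specific to a segment. Each probe is given 5′ to 3′ as in the array files, with capitals at the bases that differ from the most similar passing probe in the stretch where they align (no gaps, at least 40 bases).
Heavy V1-23, chr12:116002746-116002805, minus strand: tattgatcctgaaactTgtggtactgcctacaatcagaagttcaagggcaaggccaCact
Heavy V1-5, chr12:115751612-115751671, minus strand: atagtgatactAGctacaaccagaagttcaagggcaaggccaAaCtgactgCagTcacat
Kappa 4-53, chr6:69598826-69598885, minus strand: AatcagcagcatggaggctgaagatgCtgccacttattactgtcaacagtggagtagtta
Kappa 4-63, chr6:69327964-69328023, minus strand: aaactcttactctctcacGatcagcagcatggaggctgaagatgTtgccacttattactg
The V1-23 probe differed at 2 of 60 aligned bases from that of another heavy transcript, the V1-5 probe at 6 of 54 from that of V1-20, and the 2 kappa probes at 2 of 42 from each other. Of the 36 passing heavy probes, 10 were at least 90% identical to another passing probe and 27 at least 80%. Of the 20 passing kappa probes these counts were 6 and 15. The lowest best identity was 46.7% in the heavy locus, so not every passing probe resembled another.

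The signals behind these sequences were far apart. V1-23 read 8.68, 9.21 and 9.03 in HSCs and 15.24, 15.62 and 15.36 in MPPs and rose by 6.43 ± 0.26 (adjusted p = 0.000821), and V1-5 read 8.80, 9.86 and 9.97 in HSCs and 15.77, 16.02 and 15.82 in MPPs and rose by 6.33 ± 0.36 (adjusted p = 0.00234). Kappa 4-53 read 8.06, 8.01 and 7.63 in HSCs and 14.01, 14.45 and 13.04 in MPPs and rose by 5.93 ± 0.40 (adjusted p = 0.00347), and kappa 4-63 read 8.56, 8.48 and 8.09 in HSCs and 13.39, 14.38 and 13.37 in MPPs and rose by 5.33 ± 0.35 (adjusted p = 0.00333). In all 4, every MPP array exceeded every HSC array by more than 4 log2 units. In WT the differences were 6.13 ± 0.66, 6.12 ± 0.81, 5.54 ± 1.31 and 4.45 ± 1.40. Their limma adjusted p was 0.0298, 0.0525, 0.21 and 0.276, so of these 4 only V1-23 passed in WT. Over all 227 features, the WT median was 3.34 beside 2.87 in KO, and 195 were higher in WT MPPs. Of the 227, 46 passed upwards in WT, beside 0.36% of all features. All 58 features that rose in KO had the same sign in WT, and 21 of them passed there. The KO step minus the WT step was -0.29 ± 0.73 for V1-23 and 0.69 ± 1.82 for kappa 4-63, both within their error. The count of 58 fell to 33 without HSC array 2, 34 without MPP array 1, 36 without MPP array 3 and 16 with slide row as a block, and the within-row median of the 227 features was 4.14.

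Features of the T cell receptor loci, also grouped after the values had been seen, gave medians near 0. They were grouped by description alone. The immunoglobulin groups were formed by position, or by description where a probe had no position, so the groups were not formed alike. Of 21 beta locus features 2 rose, both constant regions, beside 0.426% of all features. How far their probes separate the 2 constant regions was not tested, so these may not be separate signals. Constant region 2 read 9.33, 10.25 and 10.51 in HSCs and 14.52, 15.42 and 13.89 in MPPs and rose by 4.58 ± 0.49 (adjusted p = 0.0205), and constant region 1 rose by 3.51 ± 0.43 (adjusted p = 0.0333). The median over the beta features was 0.04, and over 36 alpha, gamma and delta features -0.08, with 0 of them passing.

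Of the 27 gene lists described here, the B lineage genes had the highest median, 1.91 over 15 members, of which 13 were higher in MPPs. Only Pax5 passed. These genes encode the transcription factors, surrogate light chain and receptor parts of early B cells. The other members' differences ran from -0.51 to 6.37, and 9 of the 15 genes, Pax5 included, had an unadjusted p under 0.05. Over all features 6.53% reached that p upwards and 5.54% downwards. The list counts at an unadjusted p given below stand beside the same shares, and small counts can lie near them. Counts of list members that passed, here and below, stand beside 0.426% of all features that rose and 0.106% that fell. Ebf1, the pioneer factor of the B lineage, read 7.12, 7.36 and 9.29 in HSCs and 12.09, 13.71 and 14.51 in MPPs and differed by 5.51 ± 0.80 (adjusted p = 0.0512). Cd79a, the signalling chain of the B cell receptor, read 7.29, 6.30 and 10.19 in HSCs and 12.45, 15.12 and 15.33 in MPPs and differed by 6.37 ± 1.18 (adjusted p = 0.104). In both genes MPP array 1 was the lowest MPP array and array 3 the highest, and all lay above the HSC arrays. The surrogate light chain genes Igll1 and Vpreb1 differed by 4.74 ± 0.96 (adjusted p = 0.13) and 4.47 ± 1.07 (adjusted p = 0.19); Vpreb1 has a near-identical copy, Vpreb2, from which its signal may not be separable. MPP array 1 was the lowest MPP array in 12 of the 15 genes, and it still exceeded all HSC arrays in 8. Over all 29134 features these counts were 10437 and 5414. Taken array by array, the list median read 8.21, 8.25 and 9.27 in HSCs and 10.91, 13.42 and 14.46 in MPPs. Pou2af1, an octamer-binding coactivator, showed the extreme: 7.36, 7.43 and 7.42 in HSCs, 7.50 on MPP array 1, and 10.19 and 10.50 on MPP arrays 2 and 3. The list's median was 0.52 within slide row 1, where MPP array 1 is the only MPP sample, and 1.27 without MPP array 3. In RNA from sorted bulk cells, fewer cells of a type and less RNA per cell cannot be told apart. Summed linear signals of the list ranged from 57147 to 104320 in HSCs and 76528 to 246162 in MPPs. In WT the list's median was 0.25.

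**Figure D3:**
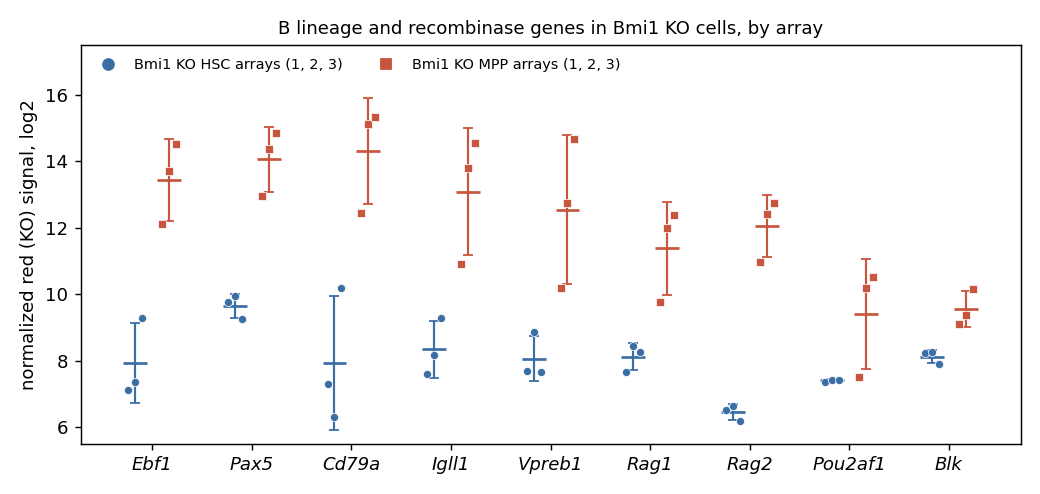
Normalized red (Bmi1 KO) signal on a log2 axis for 7 B lineage genes and the recombinase genes Rag1 and Rag2; points are single arrays, arrays 1 to 3 from left to right within a population, with means and ± 1 SD bars over 3 arrays. MPP arrays 2 and 3 lie above all HSC arrays for Ebf1, Pax5, Cd79a, Rag1, Rag2 and Pou2af1; for Pou2af1, MPP array 1 lies with the HSC arrays.

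Of 25 MPP and lymphoid priming genes tested, 21 were higher in MPPs, with a median of 1.18, and 4 passed: Rag2, Dntt, Satb1 and Flt3. This share, 16%, stands beside 0.426% of all features, but 3 of the 4 are the marker genes read above, chosen with earlier results of these data known. Cd48, a SLAM family marker absent from HSCs, read 8.73, 11.11 and 10.62 in HSCs and 14.27, 14.13 and 14.34 in MPPs and differed by 4.09 ± 0.60 (adjusted p = 0.0558). Cd34, the sialomucin by which progenitors are often separated from mouse HSCs, read 13.18, 13.32 and 13.95 in HSCs and 15.10, 15.08 and 14.67 in MPPs and differed by 1.46 ± 0.30 (adjusted p = 0.133). Both separated the populations completely without passing. Il7r, the interleukin 7 receptor, differed by 1.95 ± 0.55 (adjusted p = 0.251) and Rag1, the partner of Rag2, by 3.26 ± 0.69 (adjusted p = 0.14). Cd52, a small surface glycoprotein of lymphocytes, read 9.94, 7.74 and 12.39 in HSCs and 14.94, 15.73 and 15.58 in MPPs, and its spread in HSCs gave an adjusted p of 0.127 to a difference of 5.39 ± 1.08. Notch1 differed by 1.51 ± 0.43 (adjusted p = 0.255) and Mef2c, a regulator of lymphoid against myeloid fate, by 0.68 ± 0.27 (adjusted p = 0.39). A second Notch1 probe differed by 3.15. Of the 4 members with a lower mean in MPPs, Ltb had the lowest value, -0.72 ± 1.16. Ikzf1, which encodes Ikaros, differed by 0.53 ± 0.62 with overlapping groups.

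On the falling side, HSC identity genes had a median of -0.87. Of 35 tested, 29 were lower in MPPs and 4 fell: Vwf, Cdkn1c, Sult1a1 and Mllt3, of which the first pair are marker genes. These 4 are 11.4% of the list, beside 0.106% of all features that fell. Sult1a1, a phenol sulfotransferase, read 14.70, 14.70 and 14.89 in HSCs and 11.47, 12.14 and 11.37 in MPPs and differed by -3.11 ± 0.29 (adjusted p = 0.0116). Mllt3, a super elongation complex partner that maintains HSCs, read 13.96, 14.66 and 13.86 in HSCs and 11.04, 10.87 and 11.76 in MPPs and differed by -2.94 ± 0.36 (adjusted p = 0.0324). Arrays of each population lay within 1 log2 unit of each other in both genes. Procr, the endothelial protein C receptor used to isolate HSCs, read 14.14, 15.17 and 14.70 in HSCs and 12.73, 12.41 and 13.15 in MPPs and differed by -1.91 ± 0.35 (adjusted p = 0.105). Slamf1, which encodes the HSC marker CD150, read 10.03, 11.32 and 11.20 in HSCs and 8.37, 8.41 and 6.46 in MPPs and differed by -3.10 ± 0.63 (adjusted p = 0.13). Gata2, a transcription factor of HSC quiescence, differed by -1.84 ± 0.30 (adjusted p = 0.0737), and Esam, an adhesion molecule of HSCs, by -1.65 ± 0.28 (adjusted p = 0.0858). These 4 separated the populations on every array but missed the threshold. Ctnnal1, alpha-catulin, had the list's lowest value, -3.96 ± 0.78 (adjusted p = 0.122). Several stem cell regulators had differences near 0 and overlapping groups: Erg differed by 0.01 ± 0.24, Tal1 by -0.04 ± 0.45, Mecom by 0.18 ± 0.44 and Ly6a, which encodes Sca-1, by 0.06 ± 0.47. The list's summed linear signal was 409142 to 506216 in HSCs and 232390 to 287733 in MPPs, without overlap.

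The genes with the largest falls included Clca3a2, a chloride channel accessory gene, which read 13.53, 12.26 and 12.17 in HSCs and 8.74, 6.54 and 7.54 in MPPs and differed by -5.05 ± 0.64 (adjusted p = 0.0347); 2 of 3 MPP arrays were well above background. Clca3a1, its close paralog, differed by -3.36 ± 0.72 (adjusted p = 0.143), and how far their probes separate the pair was not tested. Evc2, a protein of the primary cilium, read 11.00, 11.60 and 12.94 in HSCs and 7.52, 8.02 and 7.87 in MPPs and differed by -4.04 ± 0.51 (adjusted p = 0.0346), while its second probe differed by -0.55. Grhl1, a grainyhead-like transcription factor, read 9.99, 9.52 and 10.12 in HSCs and 7.21, 6.21 and 6.63 in MPPs and differed by -3.20 ± 0.34 (adjusted p = 0.0204), with 1 of 3 MPP arrays well above background. Fscn1, the actin-bundling protein fascin, differed by -3.18 ± 0.44 (adjusted p = 0.0455), Rassf6, a Ras association domain protein, by -3.18 ± 0.42 (adjusted p = 0.0376), and Timp3, an inhibitor of metalloproteinases, by -3.05 ± 0.42 (adjusted p = 0.0419). Parp12 differed by -2.82 ± 0.36 (adjusted p = 0.0349) and Aacs, acetoacetyl-CoA synthetase, by -2.74 ± 0.35 (adjusted p = 0.0349). All of these but Clca3a1 fell, and none of their MPP arrays reached the range of the HSC arrays.

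Megakaryocyte and platelet genes, some of which HSCs are known to transcribe, had a median of -0.75, and 19 of 22 were lower in MPPs. Vwf, also counted among HSC genes, was the only one to fall. Mmrn1, a multimerin of platelet granules, read 11.91, 11.84 and 12.70 in HSCs and 8.54, 9.12 and 9.98 in MPPs and differed by -2.94 ± 0.44 (adjusted p = 0.057). A second Mmrn1 probe differed by -0.81. Zfpm1, the GATA1 partner FOG1, differed by -1.63 ± 0.39 (adjusted p = 0.185) and Itga2b, which encodes CD41, by -1.45 ± 0.53 (adjusted p = 0.367). Pf4, a platelet chemokine, read 10.92, 8.16 and 13.45 in HSCs and 9.39, 9.59 and 11.66 in MPPs, with the groups overlapping and an SE of 1.33. The list's summed signal ranged from 104318 to 143388 in HSCs and 53105 to 65030 in MPPs.

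Imprinted genes, expressed from 1 parental allele and known to be active in HSCs, had the lowest list median, -1.15 over 20 members. Of these 17 were lower in MPPs and 3 fell (Meg3, Grb10 and Cdkn1c), which is 15% of the list beside 0.106% of all features. Meg3, a maternally expressed noncoding RNA, read 14.44, 15.24 and 12.80 in HSCs and 9.45, 10.03 and 9.86 in MPPs and differed by -4.38 ± 0.61 (adjusted p = 0.0458), and its 2 other probes differed by -4.01 and -3.39. Grb10, an adaptor that restrains insulin signalling, read 13.10, 13.14 and 13.55 in HSCs and 10.69, 9.96 and 10.72 in MPPs and differed by -2.81 ± 0.31 (adjusted p = 0.0221). Zdbf2 differed by -2.67 ± 0.40 (adjusted p = 0.0558), H19 by -1.54 ± 0.55 (adjusted p = 0.356), and Igf2 by -2.42 ± 1.20 (adjusted p = 0.468), where HSC array 2 read 13.13 and the other HSC arrays 8.09 and 9.98. Gnas and Mest differed by 0.27 ± 0.26 and 0.10 ± 0.29, with overlapping groups.

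Hox and Meis genes, homeobox factors that are high in stem cells, had a median of -0.88, with 14 of 18 lower in MPPs. Meis1 differed by -1.26 ± 0.42 (adjusted p = 0.334) and Hoxa6 by -1.97 ± 0.56 (adjusted p = 0.255). Meis2 was not well above background on any MPP array and was at least 3.17-fold lower there (adjusted p = 0.139). Hoxa9, Hoxa10 and Hoxa7 differed by -0.21 ± 0.50, -0.07 ± 0.33 and 0.18 ± 0.47, with overlapping groups.

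Most cell cycle genes had a higher mean in MPPs, against 43% of all features, but single genes rarely passed. G2 and M phase genes had a median of 1.54 and 37 of 40 were higher in MPPs, 25 of them on every array, a separation found in 8.64% of all features. Ect2, the exchange factor that drives cytokinesis, was the only one to rise, reading 7.62, 8.26 and 8.17 in HSCs and 10.22, 9.88 and 10.49 in MPPs and differing by 2.18 ± 0.30 (adjusted p = 0.0417), with 1.36 at a second probe. Kif11, the bipolar spindle kinesin, differed by 1.68 ± 0.33 (adjusted p = 0.125) and Cdc20, the activator of the anaphase-promoting complex, by 1.37 ± 0.29 (adjusted p = 0.141). S phase genes had a median of 1.01, with 45 of 48 higher in MPPs, 23 on every array (8.64% of all features) and 0 passing limma's threshold (21 had an unadjusted p under 0.05). Pold2 and Pold1, subunits of DNA polymerase delta, differed by 1.95 ± 0.33 (adjusted p = 0.0758) and 2.27 ± 0.42 (adjusted p = 0.105), and Mcm5, of the replicative helicase, by 1.95 ± 0.39 (adjusted p = 0.13). Each of these 3 was higher on all MPP arrays.

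CDK inhibitors and other cell cycle brakes had differences of both signs, and the median over 15 of them was 0.19 (-0.06 without HSC array 1 to 0.29 without MPP array 3). Cdkn1c fell, as given above. Cdkn1a, p21, differed by -0.98 ± 0.40 (adjusted p = 0.402) and Cdkn1b, p27, by 0.60 ± 0.33 (adjusted p = 0.499). Cdkn2c, p18, read 7.48, 6.45 and 8.01 in HSCs and 9.96, 9.78 and 10.34 in MPPs and differed by 2.72 ± 0.43 (adjusted p = 0.068). Cdkn2a, the p16 and Arf gene that PRC1 represses, read 7.07, 6.90 and 7.67 in HSCs and 8.95, 8.34 and 9.09 in MPPs and differed by 1.58 ± 0.33 (adjusted p = 0.138). All MPP arrays lay above all HSC arrays for the latter pair, and in HSCs each was well above background on 2 of 3 arrays. Cdkn2b overlapped between groups, with 10.2 on HSC array 1 and at most 8.6 elsewhere. Among D cyclins, CDKs and Myc genes (median 0.02, -0.09 without HSC array 3 to 0.20 without MPP array 1) none of 10 passed limma's threshold, and 3 had an unadjusted p under 0.05. The cyclin D genes overlapped between populations, with differences of 0.11 ± 0.28 for Ccnd1, -0.25 ± 0.25 for Ccnd2 and -0.12 ± 0.46 for Ccnd3. Cdk6, the G1 kinase whose level sets how fast HSCs leave quiescence, read 8.49, 7.30 and 9.50 in HSCs and 10.72, 10.54 and 10.47 in MPPs and differed by 2.14 ± 0.54 (adjusted p = 0.209). Myc differed by 0.92 ± 0.25 (adjusted p = 0.245) and Mycn by -1.89 ± 0.52 (adjusted p = 0.247), in opposite directions.

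Most genes of ribosome biogenesis and of the respiratory chain also had higher means in MPPs, with smaller medians and no member passing limma's threshold in either list. Ribosome biogenesis genes had a median of 0.60, and 47 of 56 were higher in MPPs (17 had an unadjusted p under 0.05, of which 1 was lower). Dkc1, the pseudouridine synthase, differed by 1.67 ± 0.38 (adjusted p = 0.174) and Utp14a by 1.40 ± 0.37 (adjusted p = 0.226). Respiratory chain and ATP synthase genes had a median of 0.72, and 54 of 65 were higher (18 with an unadjusted p under 0.05). Cox6a1, a cytochrome oxidase subunit, read 7.39, 9.11 and 8.48 in HSCs and 11.06, 11.75 and 11.55 in MPPs and differed by 3.12 ± 0.47 (adjusted p = 0.0569), and Sdhb, of succinate dehydrogenase, by 1.52 ± 0.27 (adjusted p = 0.0894). Glycolysis genes had a median of 0.08 (-0.03 without MPP array 1 to 0.18 without HSC array 2) with 0 of 24 passing limma's threshold (3 had an unadjusted p under 0.05). The glucose transporter gene Slc2a3 differed by -1.63 ± 0.38 (adjusted p = 0.174) and the hexokinase gene Hk2 by 1.77 ± 0.72 (adjusted p = 0.403), in opposite directions.

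Myeloid genes were partly set apart by HSC array 3, in both channels. Cebpa, the transcription factor that starts granulocyte and monocyte development, read 7.39, 7.81 and 7.40 in HSCs and 11.54, 10.13 and 10.63 in MPPs and rose by 3.23 ± 0.40 (adjusted p = 0.0334), the only one of 13 myeloid regulators to pass. The median of that list was 0.20, and leaving out 1 array moved it over a range of 0.13 without MPP array 1 to 0.51 without HSC array 3. Spi1, which encodes PU.1, differed by 1.42 ± 0.31 (adjusted p = 0.145). Irf8, the monocyte and dendritic cell regulator, read 9.80, 9.80 and 10.92 in HSCs and 12.69, 12.43 and 12.52 in MPPs and differed by 2.37 ± 0.36 (adjusted p = 0.0589). Neutrophil granule genes had a median of 0.98, with 0 of 15 passing limma's threshold (3 had an unadjusted p under 0.05). Mpo, myeloperoxidase, read 9.91, 11.95 and 15.08 in HSCs and 16.52, 15.76 and 15.81 in MPPs, and Elane, neutrophil elastase, read 7.82, 11.51 and 12.84 in HSCs and 13.18, 12.32 and 13.04 in MPPs. HSC array 3 was the highest HSC array in 12 of these 15 genes and in 11 of the 13 basophil, mast cell and eosinophil genes. Over all 29134 features it was the highest HSC array in 8459. In Prg2, the eosinophil major basic protein, HSC array 3 read 16.06 against 7.0 and 7.5 on HSC arrays 1 and 2, and 15.25, 12.72 and 15.88 in MPPs. The WT HSCs on the same arrays read 6.18, 6.89 and 12.70 in Prg2. The granule list's median was also highest on array 3 of MPPs, with 10.27, 10.54 and 12.16 in KO and 7.76, 7.41 and 11.74 in WT. That of the basophil list was highest on array 1 of KO MPPs (11.29, 9.13 and 9.04). Summed signals of the granule list ranged from 22808 to 123183 in HSCs and 105883 to 174441 in MPPs, and those of the basophil list from 4246 to 162330 in HSCs and 33687 to 115199 in MPPs, and the part of other cell types in the HSC and MPP samples was not tested. The basophil list had a median of 1.08 with 0 of 13 passing limma's threshold (1 had an unadjusted p under 0.05). Its median was 0.25 without HSC array 1 and 2.88 without HSC array 3. The granule list's median was 1.89 without HSC array 3, 0.58 without HSC array 2 and 0.55 without MPP array 1. The monocyte and dendritic cell list had a median of 0.41 (0.26 without HSC array 2 and 0.25 without MPP array 3) with 0 of 16 passing limma's threshold (5 had an unadjusted p under 0.05).

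Markers of the erythroid, T and NK cell and stromal lineages gave no call. Erythroid genes had a median of 0.65 over 19 genes with 0 passing limma's threshold (4 had an unadjusted p under 0.05); the median was 0.25 without MPP array 3 and 0.00 within slide row 1. Tfrc, the transferrin receptor, differed by 1.85 ± 0.34 (adjusted p = 0.103) and Epor, the erythropoietin receptor, by -1.10 ± 0.29 (adjusted p = 0.218). Other Tfrc probes differed by 0.60 and 1.57. T and NK cell genes had a median of -0.13 (-0.20 without MPP array 2 to 0.07 without HSC array 2) over 18 genes with 0 passing limma's threshold (4 had an unadjusted p under 0.05). Tcf7, an early T cell factor, read 7.13, 6.08 and 6.51 in HSCs and 8.05, 9.91 and 9.04 in MPPs and differed by 2.43 ± 0.53 (adjusted p = 0.146). A second Tcf7 probe differed by 0.94. Klrd1, the NK receptor chain CD94, was not well above background in HSCs and at least 4.24-fold higher in MPPs (adjusted p = 0.0947). Stromal and endothelial genes had a median of -0.22 (-0.21 without MPP array 2 to 0.04 without HSC array 3) and ranged from -0.38 to 0.44 over 11 members, of which 0 passed limma's threshold and 0 reached an unadjusted p under 0.05.

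MHC class II genes, which present peptides to T cells, had a median of 1.46, and 8 of 9 were higher in MPPs; the median was 0.80 without HSC array 1 and 2.30 without HSC array 3. H2-Ob, the beta chain of the peptide loading regulator H2-O, read 11.10, 9.20 and 10.76 in HSCs and 14.13, 14.50 and 13.97 in MPPs and rose by 3.85 ± 0.52 (adjusted p = 0.0406). H2-DMb2, of the peptide exchange factor H2-M and not in that list, read 6.85, 7.20 and 6.82 in HSCs and 10.96, 10.95 and 10.81 in MPPs and rose by 3.95 ± 0.24 (adjusted p = 0.00267); H2-DMb1, its near copy, differed by 0.70 ± 0.66 (adjusted p = 0.677). H2-Ab1, a beta chain of class II itself, read 7.47, 7.27 and 9.46 in HSCs and 11.52, 12.54 and 11.85 in MPPs and differed by 3.91 ± 0.63 (adjusted p = 0.0685). Ciita, the coactivator of class II transcription, read 15.36, 14.95 and 14.47 in HSCs and 14.49, 14.51 and 14.46 in MPPs and differed by -0.44 ± 0.29 (adjusted p = 0.566).

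Among signalling and adhesion lists, single members passed. Itgal, the LFA-1 alpha chain of leukocytes, read 10.36, 9.66 and 10.35 in HSCs and 13.23, 13.14 and 12.72 in MPPs and rose by 2.91 ± 0.30 (adjusted p = 0.0188), with 0.44 and 4.76 at its 2 other probes. The 27 adhesion and homing genes had a median of 0.02 (-0.11 without MPP array 3 to 0.05 without MPP array 2). Tgfbr3, the TGF-beta co-receptor betaglycan, read 10.53, 10.53 and 10.12 in HSCs and 7.89, 7.37 and 6.92 in MPPs and differed by -3.00 ± 0.32 (adjusted p = 0.0205), the only one of 26 TGF-beta pathway genes to fall (median -0.21, -0.26 without HSC array 3 to -0.10 without MPP array 3). Tgfb1 and Tgfbr2 differed by 1.53 ± 0.33 and 1.20 ± 0.29, but a second Tgfbr2 probe by only 0.08. Notch pathway genes had a median of -0.38 (-0.57 without HSC array 1 and -0.18 without HSC array 2) with 0 of 24 passing limma's threshold (6 had an unadjusted p under 0.05). Hey1, a Notch target, differed by -2.68 ± 0.61 (adjusted p = 0.171) and Notch3 by -2.82 ± 0.89 (adjusted p = 0.308). PRC1 and PRC2 genes had a median of 0.44 (0.12 without HSC array 1) with 0 of 28 passing limma's threshold (7 had an unadjusted p under 0.05). Pcgf2, the closest paralogue of Bmi1, read 11.91, 12.72 and 12.95 in HSCs and 10.82, 11.16 and 10.96 in MPPs and differed by -1.55 ± 0.33 (adjusted p = 0.143). It was lower on all MPP arrays at that probe, but a second Pcgf2 probe differed by only -0.25. Immediate early genes had a median of 0.00 (-0.16 without MPP array 3 to 0.24 without MPP array 1) and interferon response genes of 0.17 (0.14 without HSC array 1 to 0.36 without HSC array 3), and 0 of 24 and 0 of 27 passed limma's threshold (5 and 2 had an unadjusted p under 0.05). Nr4a2, an orphan nuclear receptor, read 16.02, 15.75 and 15.85 in HSCs and 13.95, 14.38 and 14.54 in MPPs and differed by -1.58 ± 0.26 (adjusted p = 0.0737).

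**Figure D4:**
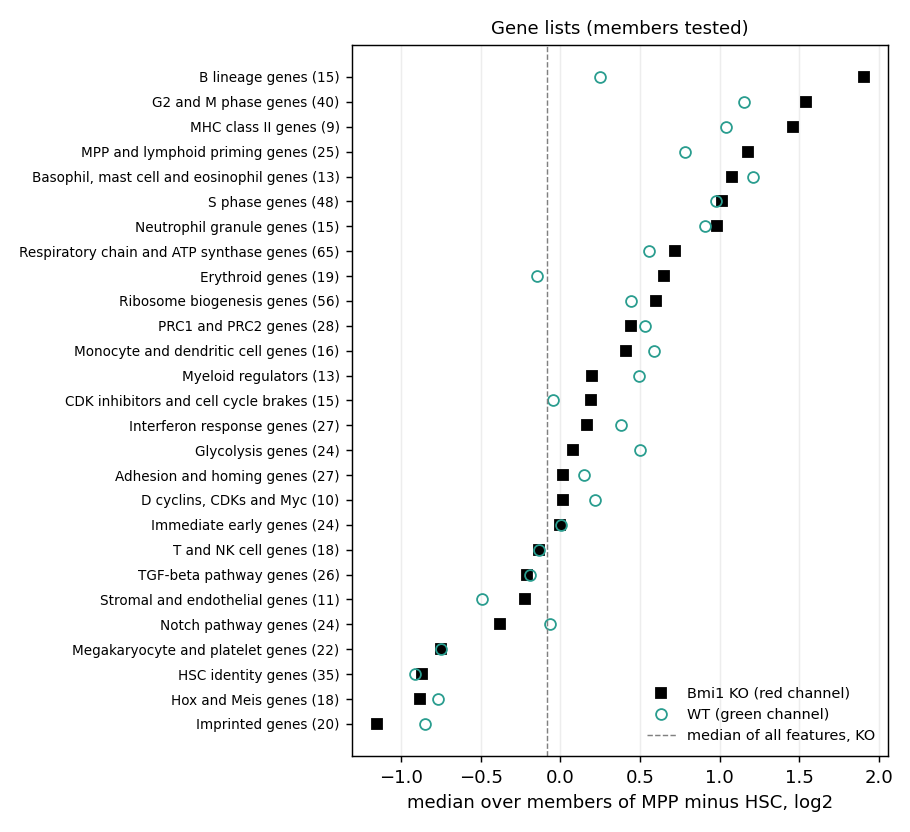
Median over list members of the MPP minus HSC difference (log2) in Bmi1 KO (filled squares) and WT (open circles) for 27 gene lists, with the number of members tested in brackets; the dashed line is the median of all features in KO, -0.09. B lineage genes have the highest KO median, 1.91, and imprinted genes the lowest, -1.15.

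Whether the step differed from that of WT cells was asked of the KO step minus the WT step, fitted to the log2 ratios within arrays, in which a dye effect of a probe cancels. No feature passed (0% of 29134; the lowest limma adjusted p was 0.965), and 1176 features (4.04%) had an unadjusted p under 0.05. In the WT channel 122 features passed (0.419%), 105 higher (0.36%) and 17 lower (0.0584%) in MPPs, 4409 had an unadjusted p under 0.05 (15.1%), and 43.7% of features had a higher mean in MPPs. Features higher in both numbered 36, which is 29.0% of the KO list and 34.3% of the WT list, and 4 were lower in both, 12.9% and 23.5%. Of the 155 KO features, 149 had the same sign in WT. Both genotypes were hybridized to the same arrays, so the channels share slide and array.

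**Figure D5:**
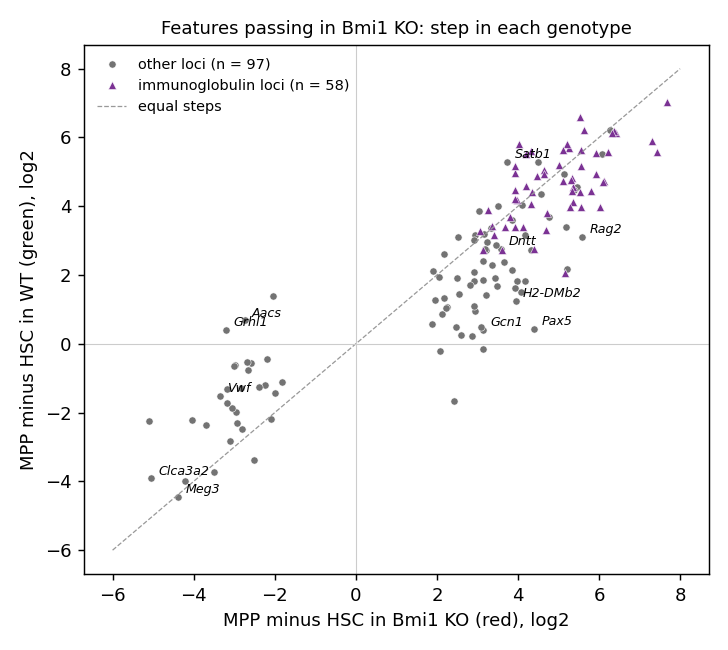
MPP minus HSC difference in WT (green channel, log2) against that in Bmi1 KO (red channel, log2) for the 155 features passing in KO, chosen on the horizontal axis; the dashed line marks equal steps. The immunoglobulin features (triangles, n = 58) spread on both sides of the line, and Pax5 and Gcn1 lie near 0 in WT, at 0.44 and 0.41.

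Among the genes with the lowest p for that difference was Pax5 of the B lineage. Pax5 differed between MPPs and HSCs by 4.41 ± 0.51 in KO and 0.44 in WT, and the difference of the steps was 4.04 ± 0.66. Across the 15 B lineage genes the KO step exceeded the WT step in 14, with a median of 1.43 against 0.01 over all features. Gcn1, a regulator of the amino acid response, rose in KO by 3.14 ± 0.29 (adjusted p = 0.0117) from 9.96, 9.27 and 9.24 to 12.73, 12.77 and 12.40, with 0.41 in WT and 2.54 ± 0.45 between the steps; a second Gcn1 probe differed by 1.34 in KO. Hyou1, a chaperone of the endoplasmic reticulum, and Psmg3, a proteasome assembly chaperone, had 2.67 ± 0.44 and 2.23 ± 0.30. In the other direction, Urgcp had -4.70 ± 0.76, Rab3a, a GTPase of exocytosis, -3.10 ± 0.49, Phf10, a PBAF subunit, -2.81 ± 0.32 and Scamp1 -2.26 ± 0.41. The adjusted p of each of these 8 genes was 0.965, so none of these differences between genotypes was shown, and the steps of Vwf (-1.76 ± 0.53) and Satb1 (-2.03 ± 0.84) likewise did not differ significantly between KO and WT.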

How the data were processed

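Per the file headers, the authors deposited for each array the intensity of every spot and its local background in both channels, read with Agilent Feature Extraction. Its version is 10.7.3.1 in those headers but 8.5.1.1 in the submitters' processing notes, which was not resolved. The deposited processed intensity, background-subtracted and dye-normalized, and the deposited log10 ratio served as an alternative. Probe positions are on mm9.

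The red intensities of 59305 spots (55681 probes) were corrected with normexp (offset 50, limma 3.58.1, R 4.3.3; R package data.table, version 1.17.8, jsonlite 2.0.0), put on a log2 scale and quantile-normalized between arrays. Spots marked non-uniform or outlying were left out and the remaining spots of a probe averaged. A probe was kept (44641 were) if 1 or more of the 4 groups had it well above background on each array and all 6 arrays gave a value; the brightest probe stands for a gene. RefSeq accessions gave current symbols to 27242 probes (48.9%).

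MPPs were compared with HSCs by lmFit and eBayes (6.64 total degrees of freedom); WT (green) and the loess-normalized ratios were fitted likewise. The p-values measure the spread between these samples. The pipeline was tested on simulated data. The marker genes, the 27 gene lists and the settings were chosen with earlier results of these data known, so no list is independent evidence of its direction. Named were Bmi1, the markers, the passing genes of largest change (15 or fewer each way, groups not overlapping, above background), up to 4 members of each list by smallest p (more for HSC, MPP, B lineage, megakaryocyte, CDK inhibitor and cyclin lists), and up to 5 per direction for KO minus WT; a few of these genes are not reported here. A few further list members named with overlapping groups or as paralogs were chosen after their values were seen, as were the immunoglobulin and T cell receptor groups. Same-numbered arrays' deviations correlated at 0.038, 0.095 and 0.0035.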

Additional observations from a re-analysis of the deposited data

How the results depend on the processing

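The 155 calls in KO stayed within 1.5 times under another offset, Agilent's processed signal, median centring, other filters, marked spots, probe averaging, the separate-channel model, array weights and the trended prior (108 to 230). They fell to 37 with the replicate block (36 of them shared with the 155), to 16 with slide row as a block (12 shared) and to 0 within row 1 (limma; 988 at an unadjusted p under 0.05), and ranged from 58 to 154 when 1 array was left out. Over all features the deviations of same-numbered arrays hardly correlated, but this cannot exclude that samples of a number were paired. Granule gene medians were highest on array 3 in KO (8.44, 8.51 and 11.34 in HSCs, 10.27, 10.54 and 12.16 in MPPs). The same held in WT (6.61, 6.98 and 10.63, and 7.76, 7.41 and 11.74). Glycolysis medians were highest on array 3 of KO HSCs but on array 1 of KO MPPs. All 37 passing genes that the naming rule chose kept their direction in all 19 settings; 22 to 37 still passed under the 10 settings of processing and model, 5 with the replicate block, 0 with slide row and 8 to 19 with 1 array left out. In WT, the 122 calls became 51 with no filter on dim probes, 218 under the separate-channel model, 0 with the replicate block, with slide row as a block and within row 1 (limma; 4223, 1277 and 1169 at an unadjusted p under 0.05), and 0 to 121 when 1 array was left out. The KO step minus the WT step gave 0 calls under every setting (limma; 289 to 2413 at an unadjusted p under 0.05). Median centring moved the median of all features in WT from -0.09 to 0.02 and the ribosome biogenesis median in KO from 0.60 to 0.71. Under another offset, median centring and no filter on dim probes, no other list median moved beyond the spread between arrays. List medians were not held against that spread under the other settings. Within row 1 the erythroid median went from 0.65 to 0.00 and the B lineage median from 1.91 to 0.52. Signs turned only for genes near 0: Phf10 became 0.043 with median centring and -0.35 to 0.23 with 1 array left out, and Col3a1 became -0.18 with slide row as a block and within row 1. Immunoglobulin features numbered 44 to 69 under the same 10 settings and 27 with the replicate block; tracking them was chosen after seeing the data. With 1 MPP array in row 1, its spread is assumed to equal that of the HSC arrays, and 3 arrays a group limit all calls.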

Other observations

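MPP array 1 stood at an extreme of its group in lists whose medians were near 0. It was the lowest MPP array in 19 of 24 immediate early genes, which respond within minutes to stimulation or handling, and the highest in 17 of 24 glycolysis genes. Over all 29134 features it was the lowest MPP array in 10437 and the highest in 7895. The medians of array 1 minus the HSC mean were -0.44 for immediate early genes and 0.34 for glycolysis genes, against -0.13 over all features. Its place in slide row 1, apart from the other MPP arrays, goes with these values. Immediate early medians were also lowest on array 1 of KO HSCs (13.65, 14.35 and 14.12), WT HSCs (11.05, 11.38 and 13.27) and WT MPPs (10.74, 11.93 and 12.94). The 3 HSC arrays all lie in row 1. Glycolysis medians were lowest on array 1 of KO HSCs (12.15, 12.42 and 12.73). The part of slide row or replicate number in these values was not tested.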
